A study of Homo sapiens with 9 samples.

Results

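The genes described here are those that encode the proteins of the cytosolic ribosome. They were chosen by symbol: RPL or RPS followed by digits and an optional A, L or X, together with RPLP0, RPLP1, RPLP2 and RPSA, and without pseudogenes and RPS6 kinases. The rule found 79 of the 20848 genes in the count tables, 49 of the large subunit (RPL symbols, the P-stalk proteins included) and 30 of the small subunit (RPS symbols). The study measured them in U251, an established human glioblastoma cell line. RNA-seq was made of 3 samples with knockdown of MSI1 (labelled Msi1 KD) and 3 control samples (labelled wild type). iCLIP, which maps the nucleotides at which a protein is crosslinked to RNA, was made of 3 further wild-type samples with an antibody against MSI1. The labels do not say by which means MSI1 was lowered or what the control cells received. The study's stated question was how expression and splicing change on MSI1 knockdown and how this relates to the iCLIP sites.

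Each ribosome holds 1 copy of almost every ribosomal protein, so the cell makes these proteins in near-equal amounts from many genes spread over the genome. Their mRNAs are short, very abundant and typically begin with a C followed by a run of pyrimidines, the terminal oligopyrimidine (TOP) tract, through which mTORC1 and the protein LARP1 set their translation. Many of the genes carry small nucleolar RNAs (snoRNAs, guides of rRNA modification) in their introns. MSI1 (Musashi1) is an RNA-binding protein of neural stem and progenitor cells that binds short motifs with a UAG core, mostly in 3′ UTRs.

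The tract is shown for the genes on which the results below turn. Each line gives 30 bases around the transcription start in the RefSeq promoter table (GRCh38.p14), 15 before it and 15 from it on, and capitals mark a run of at least 5 pyrimidines that opens with C within 5 bases of the start. The first 3 genes are those called higher in knockdown with replicate pairing, the next 5 had the largest log2 changes, and RPS4X was lower in knockdown in each pair.
RPS25 (chr11:119018329-119018358, minus strand): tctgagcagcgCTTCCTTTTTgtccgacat
RPS27 (chr1:153990747-153990776, plus strand): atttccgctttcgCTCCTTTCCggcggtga
RPL38 (chr17:74203663-74203692, plus strand): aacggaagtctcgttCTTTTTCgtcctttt
RPLP2 (chr11:809952-809981, plus strand): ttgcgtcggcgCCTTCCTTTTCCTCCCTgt
RPL36 (chr19:5690280-5690309, plus strand): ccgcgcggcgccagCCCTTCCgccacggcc
RPLP1 (chr15:69452803-69452832, plus strand): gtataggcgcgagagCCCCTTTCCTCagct
RPL35 (chr9:124861943-124861972, minus strand): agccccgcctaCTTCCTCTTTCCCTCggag
RPS29 (chr14:49598696-49598725, minus strand): ccccgagcgcgcagctggcagcggtggttg
RPS4X (chrX:72277234-72277263, minus strand): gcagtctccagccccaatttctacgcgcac
Of the 79 genes, 63 matched the promoter table by symbol. For each of these the first promoter listed was taken, while the background is every promoter of the table, without such a choice by gene. A pyrimidine run of at least 5 bases (C or T, coding strand) that began with C and started within 5 bases of the annotated start was present in 49 of the 63 (77.8%), against 21.1% of the 35116 promoters in the table. A run of at least 8 bases was present in 39 (61.9%), against 5.37% of all promoters. By the strictest form, a C in the start position followed by at least 4 more pyrimidines, 41 of the 63 (65.1%) had a tract, against 4.07% of all promoters. RPS29 and RPS4X had no such run in their windows, which says only that these letters are absent at the start listed by RefSeq.

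Depth and group were checked next. The gene counts summed to 37082699 to 42427430 reads in knockdown libraries and to 32919299 to 47277016 in control libraries. MSI1 itself (chr12:119263516-119291341, hg18, minus strand) was read at 3.15, 5.11 and 2.26 CPM (TMM-normalised counts relative to library size) in knockdown replicates 1, 2 and 3, against 16.0, 17.7 and 7.59 CPM in control replicates 1, 2 and 3, with no overlap between groups. Its log2 fold change was -1.97 (SE 0.42), with an adjusted p of 0.0699 in edgeR's quasi-likelihood test and of 0.00279 when the replicate number was a block. Control replicate 3 was unlike the rest: on the first principal component of all genes, which held 62.5% of the variance, it lay at 80.6, while the knockdown libraries lay between -40.9 and 10.4 and the other controls at -12.9 and -19.0. Glioma and astroglial markers had a summed level of 6659 to 7479 CPM over 8 markers in knockdown and 6797 to 7763 CPM in control. Most of this sum was VIM (means of 2488 CPM in knockdown and 2529 in control) and CD44 (3366 and 3700). S100B averaged only 2.17 and 1.46 CPM. Single markers within the sum did not overlap between groups. CD44, EGFR (means of 104 and 148 CPM) and SOX2 (91.6 and 149) were lower in knockdown, and FABP7 (70.7 and 40.5) was higher. Leukocyte markers summed to 4.36 to 5.80 CPM in knockdown and 4.10 to 6.90 CPM in control. The 2 fibroblast markers summed to 91.8 to 180 CPM in knockdown and 25.1 to 61.7 CPM in control, without overlap. Nearly all of this was the collagen gene COL1A1 (means of 126 and 46.8 CPM), while DCN averaged 0.123 CPM in knockdown and 0.106 in control. The 3 endothelial markers summed to 0.684 to 1.24 CPM in knockdown and 0.190 to 0.608 in control, also without overlap, and no marker of either list was at 0 in every library. The labels name no separate cultures behind the replicates, and p-values here rest on a spread that may be technical.

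The ribosomal protein genes were among the most strongly read genes of these cells. Per kilobase of exonic length, which here is the union of all exons in the deposited gene models, their level in knockdown had a median of 607 and a highest value of 2170 CPM per kb, and in control a median of 507 and a highest value of 1846 CPM per kb. The median of all 13856 genes tested was 8.16 CPM per kb in control. Of the 100 genes with the highest control level per kb, 43 were ribosomal protein genes, and 7 of them were in the top 20. Among the 75 members tested, 73 lay in the top decile of genes. Their own levels still spanned 203-fold in control.

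Levels per kb at the top of that range differed little compared with the spread between libraries. RPS2, a small-subunit protein, averaged 2037 ± 395 CPM per kb in knockdown and 1846 ± 622 in control (SD, n = 3 each, as for all means here). RPL41, the smallest of the ribosomal proteins, averaged 1593 ± 71.4 CPM per kb in knockdown and 1569 ± 199 in control. The stalk protein RPLP1 averaged 2170 ± 543 CPM per kb in knockdown and 1508 ± 829 in control. These 3 genes, and RPLP0, RPS6, RPL4 and RPL11 after them, were among the 8 highest by control level. Neighbours in that order differed by less than the larger of their SDs, apart from RPS6 and RPL4, RPL4 being a protein that lines the peptide tunnel, which averaged 1292 ± 83.7 CPM per kb in knockdown and 1189 ± 167 in control. RPLP0, the stalk's base, averaged 1475 ± 170 CPM per kb in knockdown and 1445 ± 261 in control. RPS6, the substrate of S6 kinase, averaged 1595 ± 71.2 CPM per kb in knockdown and 1364 ± 98.6 in control.

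Low levels or 0 counts were seen in several paralogs. RPL39L, a paralog of RPL39 best known from testis, was read at 11.5 ± 0.964 CPM per kb in knockdown and 9.10 ± 1.31 in control. Its partner RPL39 stood at 1081 ± 158 CPM per kb in knockdown and 1017 ± 245 in control. RPS27L, a p53-inducible paralog, averaged 67.9 ± 7.29 CPM per kb in knockdown and 67.0 ± 19.7 in control, and its partner RPS27 averaged 1299 ± 92.4 CPM per kb in knockdown and 1043 ± 177 in control. RPL3L and RPL10L, paralogs known from muscle and testis, had 0 counts in all 6 libraries, while their partners RPL3 (641 ± 112 CPM per kb in knockdown and 554 ± 169 in control) and RPL10 (327 ± 48.6 and 303 ± 78.0) were read strongly. RPL28, RPL27A and RPS23 had low levels per kb beside the family (36.8, 97.7 and 175 CPM per kb in control). Their gene models end in long last exons of 4152, 4195 and 2936 bases that were read at 2.32%, 2.40% and 4.71% of the density of the gene's strongest exon, and that make up 80.1%, 86.0% and 88.6% of the length but 31.8%, 27.0% and 36% of the reads.

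RPL21 was also listed at 0 counts in every library. It is a protein of the standard ribosome, and its gene model shares exon sequence on the same strand with a pseudogene model, RPL21P28, which was also listed at 0. RPL13A likewise overlaps RPL13AP5, listed at 0: 7 of its 8 exons had a mean control count under 1, and its whole gene count came from the last exon. RPL21 is therefore listed at 0 without a level, and the count of RPL13A covers part of the gene. RPL3L, RPL10L and RPL21 are among the 4 members that did not pass the filter on low counts, and 75 members, 45 of the large and 30 of the small subunit, were tested.

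As a group the ribosomal protein genes took a larger share of the reads in knockdown libraries, but the groups overlapped. They held 4.09%, 4.15% and 3.81% of all gene counts in knockdown replicates 1, 2 and 3, against 3.84%, 3.56% and 3.04% in control replicates 1, 2 and 3. The lowest knockdown library was thus below the highest control library, while within each replicate number the knockdown library was the higher. The mean was 4.02 ± 0.182% in knockdown and 3.48 ± 0.407% in control, a difference of 0.537 percentage points, which fell to 0.316 points without control replicate 3. The large subunit genes held 2.53 ± 0.135% in knockdown and 2.19 ± 0.262% in control, and the small subunit genes 1.48 ± 0.0472% and 1.29 ± 0.145%. Fibroblast and endothelial marker sums were also higher in knockdown (at least 91.8 and 0.684 CPM, against at most 61.7 and 0.608 CPM in control). The fibroblast sum was nearly all COL1A1, and the endothelial sum was very low. Glioma, leukocyte, epithelial, neuronal and oligodendrocyte marker sums overlapped between groups, the epithelial ones at 164 to 194 CPM in knockdown and 172 to 220 in control. The part of these markers in the members' share was not tested. In such samples a larger share of cells with high ribosomal protein mRNA cannot be told apart from more of it per cell.

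**Figure D1:**
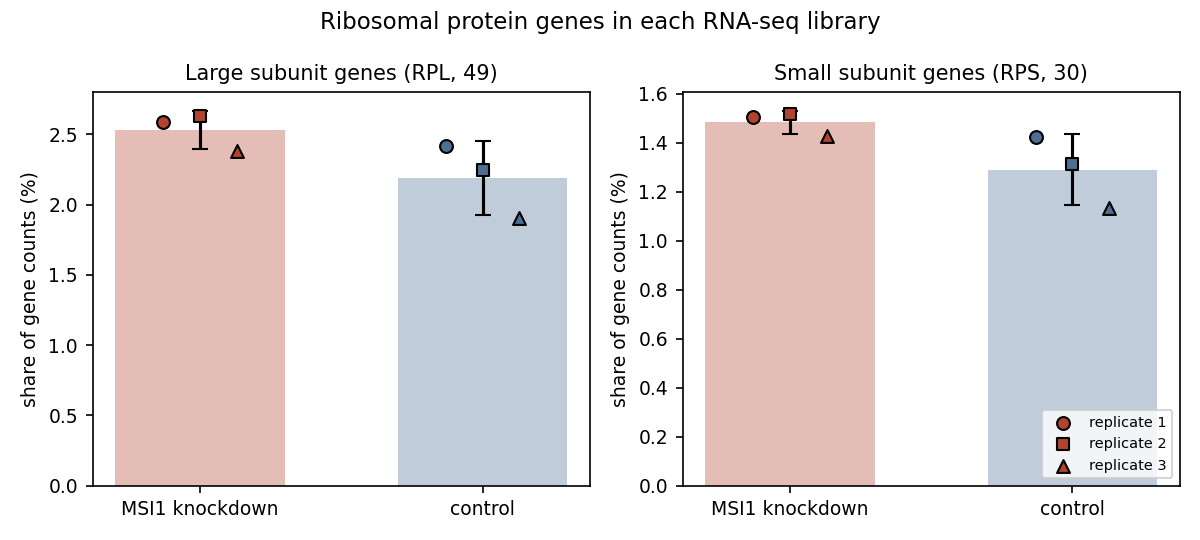
Share of all gene counts (%) held by the 49 large subunit genes (left panel) and the 30 small subunit genes (right panel) in each RNA-seq library, with bars at the mean of 3 libraries and error bars of 1 SD. Circles, squares and triangles mark replicates 1, 2 and 3. Knockdown means of 2.53% and 1.48% stand beside control means of 2.19% and 1.29%, and control replicate 3 is the lowest library in both panels.

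No single ribosomal protein gene passed the test between groups. In edgeR's quasi-likelihood test with Benjamini-Hochberg adjustment over all genes, 0 of the 75 members were called at 0.05, beside 1.67% of all 13856 genes tested (0.772% higher in knockdown and 0.902% lower), and the lowest adjusted p among them was 0.345 (RPS25). At an unadjusted p under 0.05 the count of members was also 0, beside 15.5% of all genes (6.3% higher in knockdown). DESeq2 called 0 members, beside 5.76% of all genes (3.19% higher in knockdown). The direction was nevertheless shared: 70 of 75 members (93.3%) had a positive fitted log2 change, knockdown over control, against 45.4% of all genes. The changes were small, from -0.18 to 0.57 with a median of 0.16, where all genes had a median of -0.04. The medians of the large and small subunit genes were both 0.16. The members' median moved with the scaling and was 0.21 to 0.23 with 3 other scalings. The median of all genes moved along with it, to 0.01 to 0.03, so the distance between both medians hardly changed. Without control replicate 3 the count of positive members was 64, and without control replicate 2 it was 59, with medians of 0.15 and 0.14 log2.

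The replicate numbers in the titles were taken to pair the libraries, and with the replicate number as a block 3 members were called higher in knockdown and 0 lower. This is 4% of the 75 members, against 7.04% of all genes called higher, 10.3% called lower and 17.3% called in either direction by the same fit, so the share of members called was not above that of genes at large. They were RPS25, RPS27 and RPL38. RPS25 (chr11:118391633-118394267, hg18, minus strand), a small-subunit protein needed for initiation at several viral internal ribosome entry sites, had 287, 289 and 354 CPM in knockdown replicates 1, 2 and 3, against 235, 234 and 276 CPM in control replicates 1, 2 and 3. Every knockdown library of RPS25 was above every control library, by a small margin. Its log2 change was 0.32 (SE 0.14, adjusted p 0.345) in edgeR without the block and 0.32 (SE 0.06, adjusted p 0.0253) with it. The RPS25 model shares exon sequence with CCDC84 on the other strand, which had 528 to 651 counts in knockdown and 418 to 655 in control, and the strand setting of the counting is not given.

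RPS27 (chr1:152229863-152231255, hg18, plus strand), a zinc-finger protein of the small subunit, had 469, 419 and 480 CPM in knockdown replicates 1, 2 and 3, against 426, 302 and 370 CPM in control replicates 1, 2 and 3. Knockdown replicate 2 lay just below the highest control library. Its blocked log2 change was 0.33 (SE 0.08), with an adjusted p of 0.0486 in edgeR's test with the replicate block and 0.406 without it. RPL38 (chr17:69711390-69717614, hg18, plus strand), which in the mouse is needed for translation of Hox mRNAs, had 247, 182 and 153 CPM in knockdown replicates, against 213, 136 and 90.3 CPM in control replicates of the same numbers. The groups overlapped while the knockdown library was the higher in each pair, and its blocked log2 change was 0.46 (SE 0.11, adjusted p 0.0425 in edgeR's test with the replicate block, 0.648 without it).

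The gain differed from pair to pair. In pair 1, which sets knockdown replicate 1 against control replicate 1, the members' changes ran from -0.36 to 0.39 log2 with a median of 0.03, and 45 of 75 (60.0%) were positive, against 40.0% of all genes. In pair 2 the median was 0.22 and 68 (90.7%) were positive, against 46.4% of all genes. In pair 3 the median was 0.30 and 67 (89.3%) were positive, against 50.7% of all genes. Changes above 0.5 log2 were seen in 0, 5 and 18 members in pairs 1, 2 and 3 (0%, 6.67% and 24%), beside 8.87%, 11.2% and 24.7% of all genes. Of the 75 members, 40 were higher in knockdown in each of the 3 pairs, beside 23.5% of all genes, and 1 was lower in each, beside 32.4%. Groups did not overlap in 4 members, all higher in knockdown (RPS25, RPL17, RPL37A and RPS6), or 5.33% beside 8.73% of all genes, and 0 were lower without overlap, beside 14.1%.

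**Figure D2:**
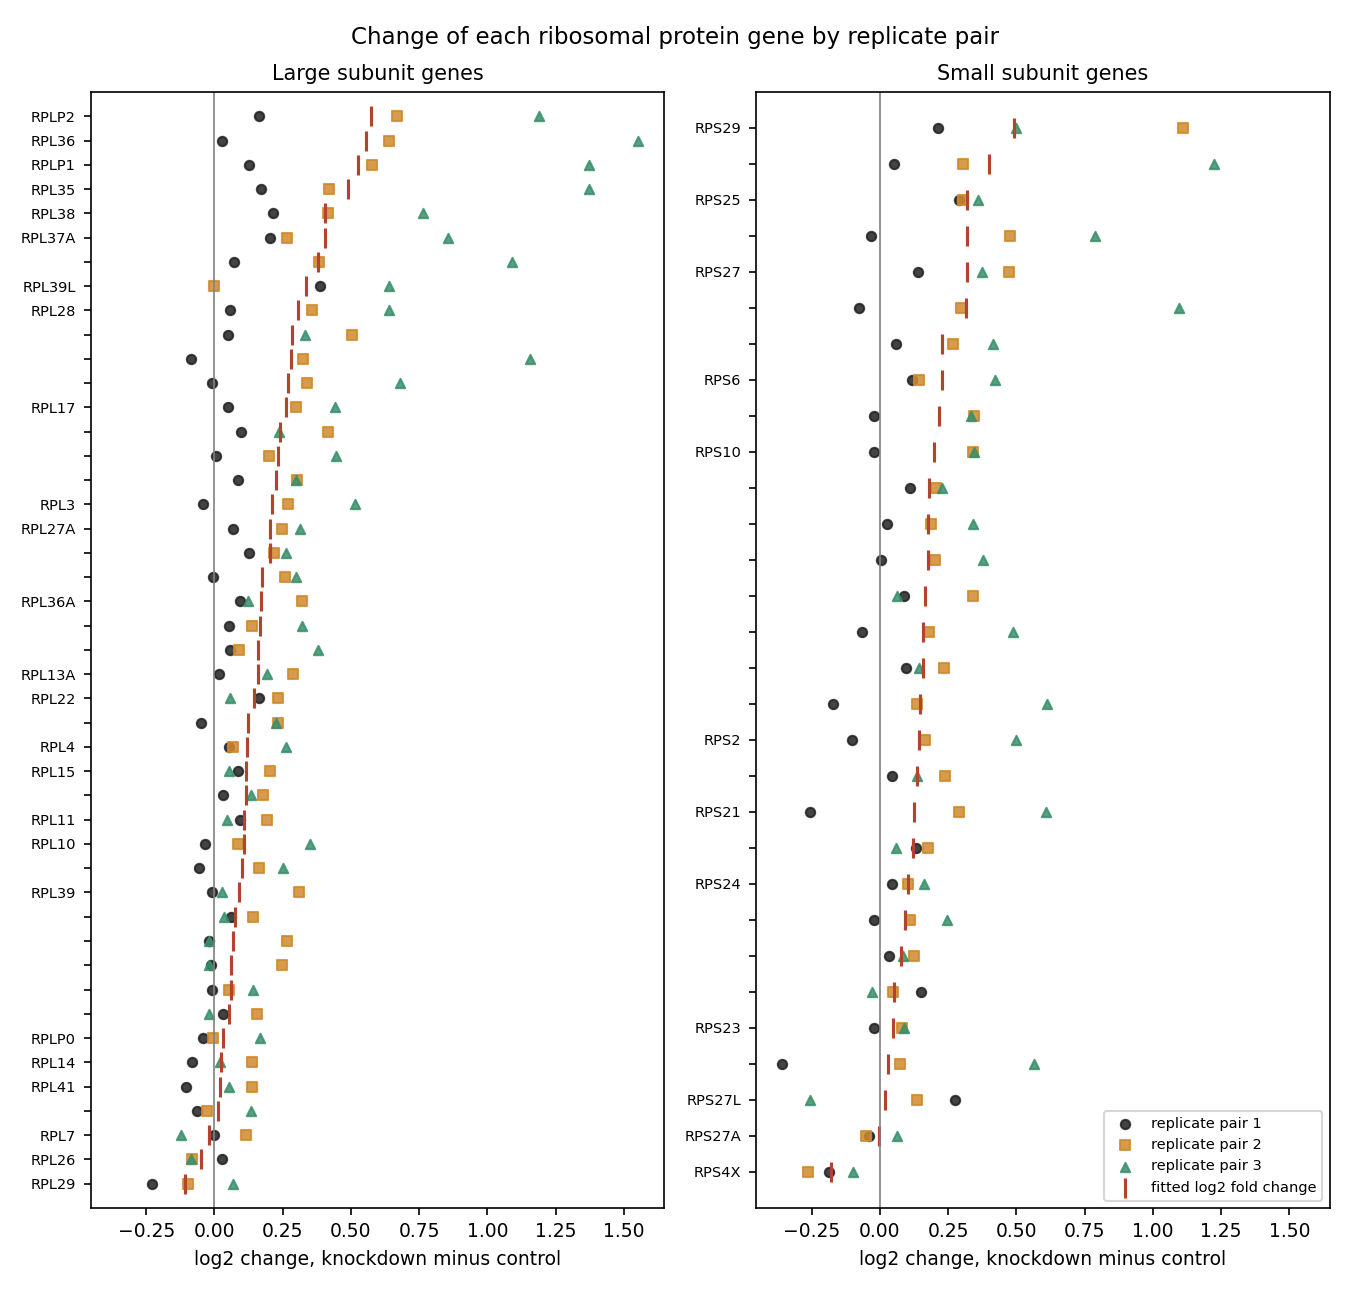
Log2 change (knockdown minus control, x axis) of each of the 45 large subunit genes (left panel) and 30 small subunit genes (right panel) tested, in replicate pairs 1 (circles), 2 (squares) and 3 (triangles), with a vertical tick at the fitted log2 fold change. Gene names are given for a selection of rows. Pair 1 lies close to 0, with a median of 0.03, and pair 3 extends to 1.55 for RPL36.

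The 5 members with the largest fitted changes were RPLP2, RPL36, RPLP1, RPS29 and RPL35. RPLP1 and RPLP2 are the acidic proteins of the stalk, the lateral arm of the large subunit that recruits and activates elongation factors. RPLP2 (chr11:799936-802876, hg18, plus strand) had 314, 396 and 220 CPM in knockdown replicates 1, 2 and 3, against 280, 249 and 96.5 CPM in control replicates 1, 2 and 3. RPLP1 had 1241, 1300 and 792 CPM in knockdown, against 1137, 872 and 306 CPM in control. Both were high in every library but control replicate 3, and the lowest knockdown library was below the highest control library. The fitted log2 changes were 0.57 (SE 0.40) for RPLP2 and 0.53 (SE 0.44) for RPLP1, with adjusted p values of 0.587 and 0.673 in edgeR's quasi-likelihood test. With the replicate block the adjusted p values were 0.0572 and 0.0873. RPLP0, to which both bind, had 1934, 2034 and 1623 CPM in knockdown and 1991, 2042 and 1446 CPM in control, a log2 change of 0.03 (SE 0.17), and the differences between the 3 stalk genes were not tested.

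RPL36, RPL35 and RPS29 had the same form. RPL36 had 172, 221 and 127 CPM in knockdown replicates, against 169, 142 and 43.1 CPM in control replicates. RPL35, which sits near the exit of the peptide tunnel, had 516, 498 and 335 CPM in knockdown, against 458, 372 and 129 CPM in control. In both genes control replicate 3 was far below the other 5 libraries and pair 1 hardly differed. RPS29, a small zinc-binding protein of the small subunit, differed from them in that control replicate 2 was its lowest library: it had 245, 149 and 142 CPM in knockdown, against 212, 68.9 and 100 CPM in control. None of the 3 was called in edgeR's test, with adjusted p values of 0.673, 0.688 and 0.679 for RPL36, RPL35 and RPS29. Over all 75 members, control replicate 3 was the lowest library for 45 and control replicate 2 for 26, and a knockdown library was the highest for 55.

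Besides RPS25, groups did not overlap in 3 members. RPS6 had 1292, 1285 and 1391 CPM in knockdown, against 1190, 1165 and 1037 CPM in control (log2 change 0.23, SE 0.12, adjusted p 0.437 in edgeR). RPL17 had 307, 327 and 359 CPM in knockdown, against 297, 266 and 264 CPM in control (log2 change 0.26, SE 0.12), with changes of 0.05, 0.30 and 0.44 in pairs 1, 2 and 3. RPL37A had 503, 521 and 475 CPM in knockdown, against 437, 433 and 263 CPM in control (log2 change 0.40, SE 0.21). Its changes were 0.20, 0.26 and 0.85 in pairs 1, 2 and 3, and control replicate 3 was far below its other libraries. All values of these genes in knockdown were above all those in control, and none passed the test with or without the replicate block (adjusted p 0.0783 to 0.114 with the block in edgeR).

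A negative fitted change was seen in 5 members. RPS4X (chrX:71409178-71413866, hg18, minus strand), the X-linked form of the small-subunit protein S4, was the only member lower in knockdown in all 3 pairs. It had 787, 670 and 805 CPM in knockdown replicates 1, 2 and 3, against 896, 805 and 862 CPM in control replicates 1, 2 and 3. The highest knockdown library just exceeded the lowest control library, and the log2 change was -0.18 (SE 0.13), with an adjusted p of 0.593 in edgeR without the block and 0.115 with it. RPL29, a heparin-binding protein of the large subunit, had 274, 283 and 199 CPM in knockdown, against 321, 302 and 190 CPM in control (log2 change -0.11, SE 0.23). RPS4X and RPL29 stayed negative under all 4 scalings. RPL26, RPL7 and RPS27A, the last of which is made as a fusion with ubiquitin, had changes of -0.05, -0.02 and -0.01, and their sign turned with the scaling. RPL22, which also binds viral RNA, and RPL36A had positive changes of 0.14 (SE 0.15) and 0.17 (SE 0.15) that did not pass the test.

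No paralog passed the test of its own change. RPL39L had 8.10, 7.40 and 8.75 CPM in knockdown, against 6.19, 7.40 and 5.60 CPM in control, and RPL39 had 438, 368 and 494 CPM in knockdown, against 441, 297 and 485 CPM in control. RPL39L was higher in knockdown in pairs 1 and 3 and level in pair 2, with a log2 change of 0.34 (SE 0.19), and RPL39 had 0.09 (SE 0.21). RPS27L had 73.7, 65.6 and 81.4 CPM in knockdown, against 60.9, 59.7 and 97.3 CPM in control, a log2 change of 0.02 (SE 0.22) with pairs of opposite sign. The differences between partners were not tested. Exons of RPL10, RPL23A, RPL35 and RPS27A overlap those of other genes on the opposite strand (DNASE1L1, TLCD1, WDR38 and C2orf63), so that, without the strand setting, their reads are not assigned with certainty.

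Members with a pyrimidine tract in the start position had a somewhat larger median change than those without. Among tested members in the promoter table, the 40 with a tract (as RPLP1 and RPL38 in the windows above) had a median log2 change of 0.19, with 38 positive, and the 21 without had a median of 0.11, with 19 positive. The medians in pairs 1, 2 and 3 were 0.04, 0.27 and 0.34 with a tract and 0.03, 0.18 and 0.25 without. Ranges overlapped almost wholly, from -0.11 to 0.57 with a tract and from -0.18 to 0.49 without. The split rests on the first promoter listed per gene. RPL10A, with a run of 9 bases that opened at base 4, fell among those without. The G+C share of the transcripts also differed, with medians of 50.1% and 48.4%, and the split was not tested.

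Base composition moved with the change, and differently in each pair. The G+C share of the members' transcripts (GENCODE 29) ran from 42.1% to 63.1% with a median of 49.5%, beside 48.7% for the 85.4% of all tested genes that could be matched. Across the 75 members Spearman's rho between G+C and the log2 change was -0.23, 0.31 and 0.60 in pairs 1, 2 and 3, and across all matched genes it was -0.16, 0.16 and 0.57. These points share libraries and describe them only. The members at or above the median G+C had median changes of 0.01, 0.27 and 0.40 in pairs 1, 2 and 3, beside -0.11, 0.04 and 0.37 for all genes at or above that value. The members below it had medians of 0.05, 0.19 and 0.13, beside -0.03, -0.09 and -0.23 for all genes below it. All genes span a wider range, from 29.6% to 74% G+C, so these are not sets matched in composition. The members' median was above that of all genes on the same side in each of these 6 comparisons, by least in pair 3 on the G+C-rich side, where RPL36 (62.1% G+C), RPLP2 (62.1%) and RPL35 (58.2%) lie. RPLP1, with 47.7%, changed by 1.37 log2 in pair 3 and does not lie on that side. Its G+C share is that of a GENCODE transcript of 1197 bases, while the counted RPLP1 model has 512 bases of exon. The side on which RPLP1 falls may therefore not hold for the sequence that was counted. Other members differ likewise, such as RPL37A with 3647 bases of transcript and 418 of counted exon. The part of base composition in the members' changes was not tested beyond these medians.

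**Figure D3:**
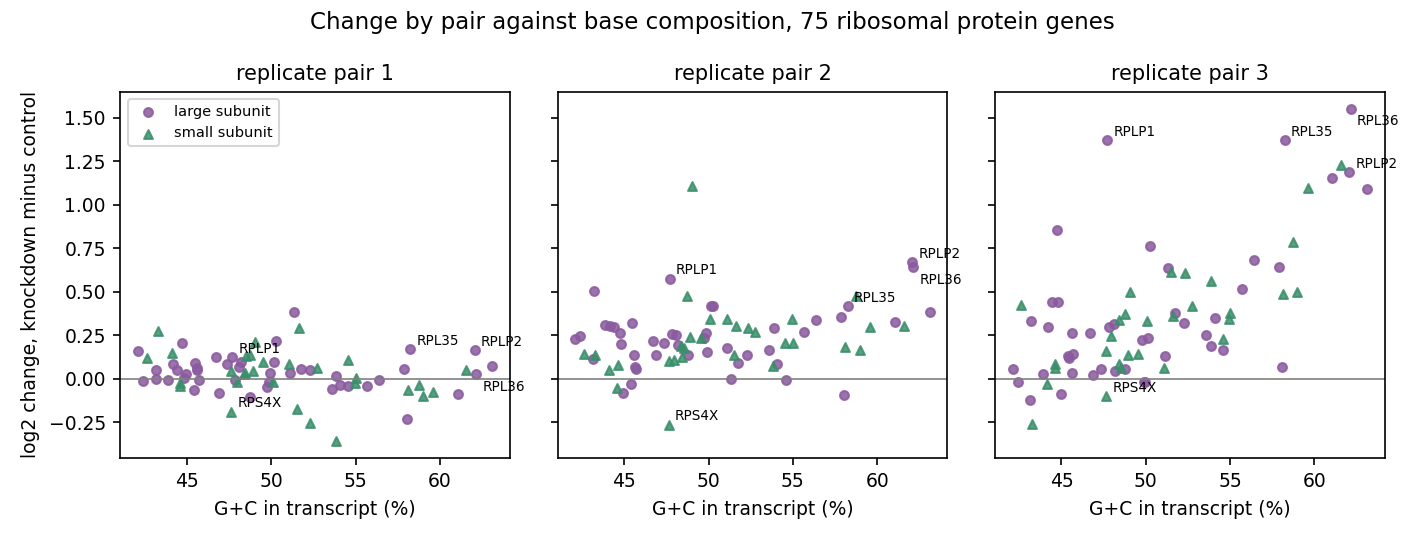
Log2 change (knockdown minus control, y axis) of the 75 tested ribosomal protein genes against the G+C share of their transcript (%, x axis) in replicate pairs 1, 2 and 3, with circles for the large and triangles for the small subunit. Spearman's rho is -0.23, 0.31 and 0.60 from left to right, and the highest points in pair 3 are RPL36, RPLP1 and RPL35.

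In the other lists of translation genes 25.3% to 66.7% of changes were positive, beside 93.3% for the members and 45.4% for all genes, and the differences between lists were not tested. Of 46 translation factors, 0 were called without the block, and with it 1 was called higher and 3 lower, with a median log2 change of -0.03. Initiation factor EIF4A2 had 299 ± 55.4 CPM in knockdown and 412 ± 116 in control (log2 change -0.46, adjusted p 0.403 in edgeR without the block and 0.0196 with it), and EIF2S1, the alpha subunit of eIF2, had 192 ± 28.0 and 255 ± 59.5 CPM. EEF1A2, an elongation factor, was the factor called higher with the block, at 58.0 ± 19.5 CPM in knockdown and 29.4 ± 17.3 in control. Of 36 other genes with a TOP tract, 0 were called without the block and 2 were called lower with it, and their median was -0.01. Of these genes, which share the tract with the ribosomal proteins, 17 had a positive change. The share called lower with the block was 6.52% of the factors and 5.56% of the TOP genes, beside 10.3% of all genes. Both shares include EIF4A2, which is in both lists, so the lists are not separate groups.

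Of 95 ribosome biogenesis factors tested, 1 was called lower and 0 higher without the block. With it 12 were called lower (12.6%, beside 10.3% of all genes) and 2 higher (2.11%, beside 7.04%). Their median log2 change was -0.11, with 24 positive (25.3%, beside 45.4% of all genes). The gene called in both fits was RRP1B, a nucleolar rRNA-processing protein, at 40.8 ± 4.74 CPM in knockdown and 95.7 ± 9.93 in control (log2 change -1.23, SE 0.16, adjusted p 0.0164 in edgeR). NAT10, the acetyltransferase of 18S rRNA, had 134 ± 4.40 CPM in knockdown and 182 ± 12.9 in control, and POLR1E, a subunit of RNA polymerase I, had 90.5 ± 6.14 and 122 ± 9.42 CPM. Both were called only with the block, with adjusted p values of 0.0125 and 0.0139 in edgeR. Of 23 tested regulators of ribosomal protein production, 0 were called without the block and 3 were called lower with it (13%, beside 10.3% of all genes). These were RICTOR of mTORC2 (45.2 ± 6.61 CPM in knockdown and 73.6 ± 24.7 in control), LARP1B (34.9 ± 5.43 and 50.3 ± 13.5) and TSC1 (59.8 ± 2.13 and 74.8 ± 0.257). MTOR itself had 212 ± 8.84 CPM in knockdown and 248 ± 11.3 in control and was not called (adjusted p 0.0675 in edgeR with the block).

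Mitochondrial ribosomal proteins, which serve a separate ribosome, had a median of 0.00 log2 with 38 of 74 positive. Without the block 0 were called, and with it 2 were called higher, MRPL33 (51.8 ± 7.46 CPM in knockdown and 29.4 ± 5.63 in control) and MRPS22 (35.7 ± 2.44 and 23.6 ± 3.46), and 3 lower, among them MRPL9 (31.8 ± 3.82 and 47.6 ± 6.22). Among 6 genes related to ribosomal proteins but outside the symbol rule, 4 had a positive change and the median was 0.10 log2. RPL36AL, the paralog of RPL36A, had 125 ± 4.92 CPM in knockdown and 107 ± 10.8 in control without overlap, and was not called. RPL7L1, a biogenesis factor related to RPL7, was called lower with the block (63.6 ± 5.73 CPM in knockdown and 98.6 ± 8.14 in control, adjusted p 0.0064 in edgeR). FAU, which encodes RPS30 fused to a ubiquitin-like protein, had 95.2 ± 23.2 CPM in knockdown and 76.2 ± 43.1 in control. It was not called in either fit.

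No change of exon use within the ribosomal protein genes passed the test. With edgeR's diffSpliceDGE the change of an exon was compared with that of its gene's remaining exons, for 408 exons of 74 members among 124057 exons in all. None of the member exons was called, beside 0% of all exons. An unadjusted p under 0.05 was seen in 5 of the 408 member exons and in 274 of all 124057 (0.221%). The members' share was thus the larger, and this difference was not tested. A share of 0.221% of all exons at an unadjusted limit of 0.05 shows that the test was very strict on these libraries. The absence of calls therefore does not show that exon use was unchanged. With the replicate block 0 member exons were called, beside 0.00806% of all. The 3 lowest p values belonged to first exons. The first exon of RPL14 (chr3:40473805-40473969, hg18) held 1.22%, 0.608% and 0.353% of the gene's exon counts in knockdown replicates 1, 2 and 3, against 0.559%, 0.386% and 0.0581% in control replicates, with 68 to 278 reads in knockdown and 9 to 140 in control. The first exon of RPS21 (chr20:60395516-60395587, hg18) held 6.25 ± 2.05% in knockdown and 2.63 ± 1.03% in control, and that of RPL7 held 2.98 ± 0.561% and 1.76 ± 0.579%. These exons are higher in knockdown in each pair, and their adjusted p was 1.00 for all 3 in edgeR without the block and 0.112, 0.785 and 0.785 with it.

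Relative to their abundance, the ribosomal protein genes had few MSI1 iCLIP sites. The 3 deposited lists hold 1746795, 145718 and 208722 single-nucleotide sites in iCLIP replicates 1, 2 and 3, of which 241103, 27058 and 51043 lie in exons. The exons of the 79 members held 533, 62 and 92 of these. That is 0.221% of exonic sites in list 1 (95% Wilson interval 0.203% to 0.241%), 0.229% in list 2 (0.179% to 0.294%) and 0.180% in list 3 (0.147% to 0.221%), where the intervals cover counting error only. The same exons took 4.13% of the exon counts in control RNA-seq and made up 0.124% of all exonic length. The share of sites divided by the share of reads was 0.0536, 0.0555 and 0.0437 in the 3 lists, a mean of 0.0509 ± 0.00635, so that the share of sites was 19.6-fold below the share of reads. The ratio was lower with stricter or wider sets of sites: 0.0260 for sites in at least 2 lists, 0.0119 for sites in all 3 and 0.0259 with introns included. A list names each position once, and at most 0.666% of the members' exonic positions carried a site in any list. Whether that form of the lists limits the ratio was not tested.

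Per length, by contrast, the members had more sites than exons at large. They had 6.66, 0.775 and 1.15 sites per kb of exon in lists 1, 2 and 3, against 3.74, 0.420 and 0.792 sites per kb over all exons. Gene by gene, with the 3 lists merged, the 75 tested members had a median of 7.67 sites per kb, against 2.02 for the 13781 other genes tested. Per 1000 control exon reads they had a median of 0.245 sites, against 4.45 for the other genes. By that measure 74 of 75 members lay below the median of the other genes and 72 below their 25th percentile. Across all matched genes sites and reads went together (Spearman's rho 0.75), while within the members rho was 0.29 (n = 75 genes that share the same libraries).

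**Figure D4:**
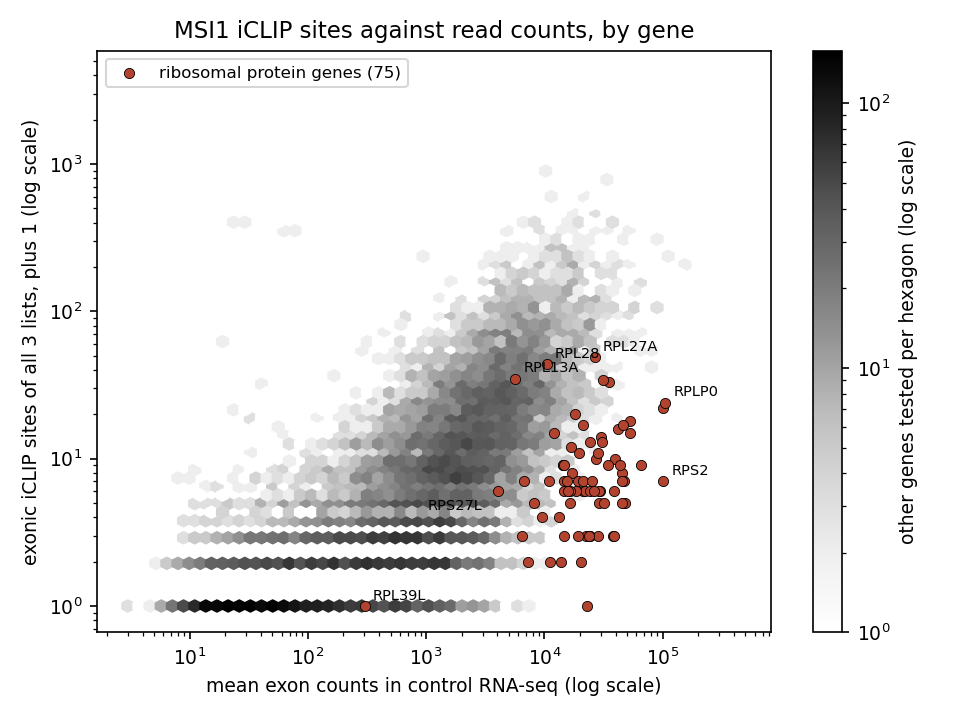
Exonic MSI1 iCLIP sites of the 3 lists merged, plus 1 (y axis, log scale), against the mean exon counts of the 3 control RNA-seq libraries (x axis, log scale). Red points are the 75 tested ribosomal protein genes and grey hexagons the other genes tested. The members lie at the right, at a median of 22783 counts, with 6 sites in the median and at most 48.

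The ratio was higher in each related gene group. The mean ratio of site share to read share was 0.128 ± 0.00802 for other TOP genes, 0.196 ± 0.0255 for translation factors, 0.251 ± 0.0313 for biogenesis factors, 0.330 ± 0.140 for the 6 related genes outside the symbol rule, 0.497 ± 0.0660 for mitochondrial ribosomal proteins and 0.857 ± 0.132 for the regulators. The members' 3 ratios (0.0437 to 0.0555) were below every ratio of these groups. The groups also differ in length and abundance. Member transcripts had a median length of 891 bases and 3′ UTRs of 83 bases, against 3145 and 1057 bases for all genes. Median control exon reads per kb were 29827 in members, 8434 in other TOP genes, 5850 in translation factors and 4968 in the related genes. They were 1603 in biogenesis factors, 1387 in mitochondrial ribosomal proteins and 1080 in regulators. The most abundant groups thus had the lowest ratios. Genes of equal abundance were not compared, and the part of abundance in the ratios was not tested.

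**Figure D5:**
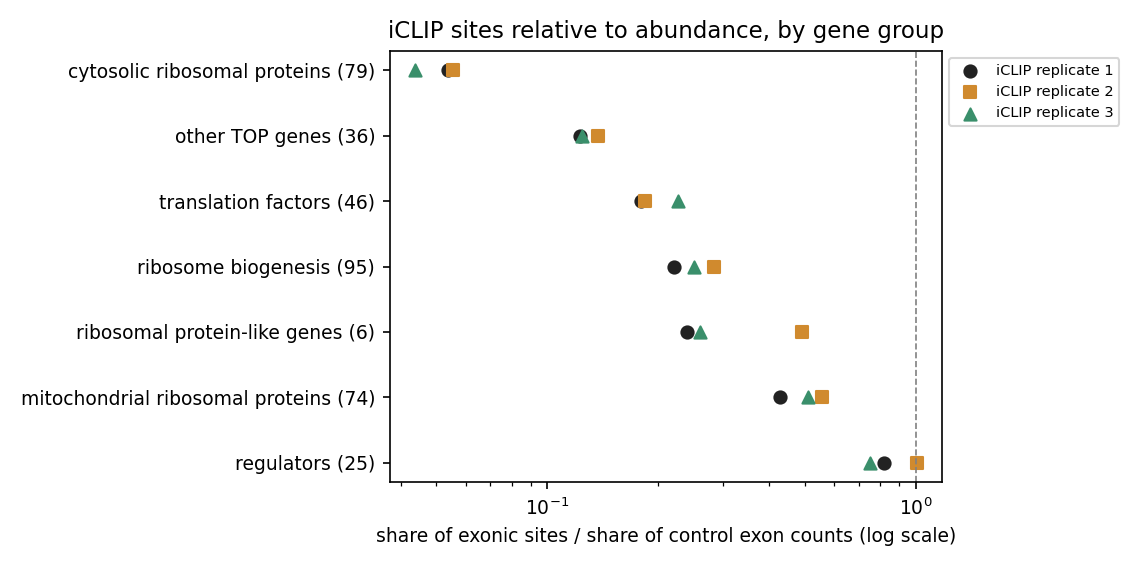
Share of exonic iCLIP sites divided by the share of control exon counts (x axis, log scale) for the 79 ribosomal protein genes and 6 related gene groups, with circles, squares and triangles for iCLIP replicates 1, 2 and 3. The dashed line marks a ratio of 1. Ribosomal protein genes lie lowest in each list, between 0.0437 and 0.0555.

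The sites were spread thinly over the family. Merged over lists, 668 exonic positions fell in 75 of the 79 members. Only 18 (2.69%) were in at least 2 lists and 1 was in all 3, in RPL30, against 5.60% in at least 2 lists for all exonic sites. The members with the most sites, named after their values were seen, were RPL27A with 48, RPL28 with 43, RPL13A with 34, RPS23 with 33 and RPL15 with 32. RPL30 had 11. Among the most abundant members, RPLP0 had 23 sites for a mean of 105570 control reads and RPS2 had 6 for 101527. RPS10 had none with 22783 reads, RPL39L had none with 302, and RPL3L, listed at 0 reads, had none.

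The 5 members richest in sites carried most of them in their last exons. The last exon of RPL27A (chr11:8663801-8667995, hg18, plus strand) held 35 of its 48 sites, that of RPL28 (chr19:60591110-60595261, plus strand) 35 of 43, and that of RPS23 (chr5:81604895-81607830, minus strand) 27 of 33. These 3 are long exons read at under 5% of the density of the gene's strongest exon. RPL15 had 24 of 32 sites in a last exon read at 30.3% of that density, and RPL13A had 25 of 34 in its last exon, the only one with counts. Over all members, 64 such little-read exons held 140 sites (21.0%), 31.3% of the exonic length and 1.43% of the reads. Internal exons held 349 sites, last exons 271 and first exons 47, or 9.60, 7.67 and 6.29 sites per kb. Without the little-read exons the ratio of site share to read share was 0.0381.

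In introns the sites of the ribosomal protein genes gathered in snoRNAs. The members' introns held 1149 sites on the gene's strand, and 484 of them (42.1%) lay inside 54 snoRNAs hosted by 27 members, which take up 1.55% of the intronic length. In list 1 the snoRNAs held 235 of 750 intronic sites (31.3%), in list 2 230 of 325 (70.8%) and in list 3 166 of 264 (62.9%). Of the 54 snoRNAs 48 had a site (88.9%), against 175 of 301 other snoRNAs and small Cajal body RNAs in the gene table (58.1%). A site inside a snoRNA can come from the processed snoRNA or from the host's precursor RNA, and position alone does not tell them apart.

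The largest numbers were in snoRNAs of the H/ACA class, which guide pseudouridylation. SNORA62 in RPSA (chr3:39427549-39427702, hg18) had 60 sites over 154 bases, 24 of them in at least 2 lists and 6 in all 3. SNORA10 in RPS2 (chr16:1952336-1952468) had 33, SNORA69 in RPL39 had 29, SNORA6 in RPSA had 28 and SNORA45 in RPL27A had 27. These 5 short intervals hold more sites each than the exons of most members, whose median was 6. SNORA27 in RPL21, a host listed at 0 reads, had 17 sites. The RNA-seq counts of SNORA62 were 13, 20 and 16 in knockdown replicates and 29, 19 and 15 in control replicates, too few to describe a change.

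Sites and UAG motifs were also set beside the members' changes. Across the 75 members Spearman's rho between exonic sites and the fitted log2 change was -0.02. RPL27A, RPL28 and RPL15, among the richest in sites, had log2 changes of 0.21 (SE 0.14), 0.30 (SE 0.32) and 0.12 (SE 0.12), none of which passed the test. RPS10, with no site, had 0.20 (SE 0.22). The UAG core, searched as TAG on the transcript strand, occurred at a median of 5.81 per kb in member transcripts, against 7.78 in all genes, and at a median of 1 per 3′ UTR, against 11. The counts per 3′ UTR are not scaled to length, and the median 3′ UTR was 83 bases in members and 1057 in all genes. Spearman's coefficient between TAG per kb and sites per kb was 0.19 within the members and 0.15 over all matched genes.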

How the data were processed

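RNA-seq of U251 cells (3 knockdown and 3 control samples) and MSI1 iCLIP (3 wild-type samples) were used, grouped and numbered by the sample titles. For RNA-seq, raw read counts over genes and over exons were deposited by the authors, 1 table of each per sample. For each iCLIP sample the authors deposited a list of single-nucleotide sites with a p-value per site. Coordinates are on hg18, per the submitters' processing notes. Neither aligner, read counter, strandedness nor site caller is given in the sources used here. The labels' protocol covers iCLIP alone and speaks of biological replicates pooled for sequencing, while each sample has its own values.

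All 13856 genes that passed filterByExpr entered edgeR's quasi-likelihood test (edgeR 4.0.16, R 4.3.3), with TMM scaling, Benjamini-Hochberg adjustment and a threshold of 0.05. CPM uses the TMM factors, the prior count of log2 CPM was 2, and DESeq2 1.42.0 was an alternative. Exon counts (at least 10 in 3 libraries) were tested with diffSpliceDGE. On simulated counts the gene test recovered 27.0% of 2-fold and 97.0% of 4-fold changes among 13856 genes, with 8 false calls, and the exon test recovered 97.0% of 4-fold changes among 122806 exons, with 169 false calls. The exon simulation gave all libraries equal depth and all exons the same fixed spread, without differences between replicates. These settings differ from the deposited libraries, so its recovery does not measure how many real exon changes the test would find. Sites were assigned to exons on the same strand with bedtools 2.31.1. Wilson intervals are at 95% and cover counting error only. Lengths, G+C and TAG counts are medians over the principal transcripts of GENCODE 29, for 75 of 75 members tested.

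Replicate numbers come from the titles. Deviations from the group means of same-numbered libraries correlated at 0.318, 0.732 and 0.751. Each exceeds 0.1, and the numbers were taken to pair the samples, and a fit with the replicate number as a block is given where it changes a call. The block leaves 2 residual degrees of freedom, against 4 without it.

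The members, the lists and the rule for named genes were chosen with earlier results of these data known. Named were MSI1, the 8 members highest per kb, the 5 highest and 5 lowest changes, members called in either fit, paralogs with partners, members not tested, members with sites shared by all lists (RPL30 alone), the 3 exons of lowest p and up to 4 genes of each other list. Other genes were named after their values were seen. Y-linked paralogs were left out, and some members fixed by the naming rule are not reported here. Alternatives covered scaling, filters, DESeq2, the replicate block, each library left out and, for sites, the authors' p, sites shared between lists, gene counts and introns.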

Additional observations from a re-analysis of the deposited data

How the results depend on the processing

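The count of members called was 0 with edgeR's quasi-likelihood test, under 3 other scalings, 2 other filters, DESeq2 and without each library in turn. With the replicate block it was 3, and with the block and DESeq2 size factors, or the block and TMM computed without the members, both chosen after seeing the data, it was 7 in each (9.33% of members called higher, beside 8.39% and 8.31% of all genes). The replicate block changed no other call of a member. Over all genes the test called 232, DESeq2 798, the replicate block 2398, and the fits without 1 library 0 to 1028, the highest without control replicate 3. Of the other lists 1 gene was called, against 28 with the replicate block, 4 with DESeq2, 22 and 21 with the block and those 2 scalings, and 0 to 5 without each library, 5 of them without control replicate 3. The members' median log2 change was 0.14 to 0.25 without each library, and the difference of their share of counts was 0.316 to 0.717 percentage points. No member exon was called under any exon setting. The ratio of site share to read share, 0.0509, was 0.0404 for sites with the authors' p of at most 0.05, 0.0260 for sites in at least 2 lists, 0.0119 for sites in all 3, 0.0596 against gene counts, 0.0259 with introns included and, chosen after seeing the data, 0.0381 without little-read exons. It was 0.0486 to 0.0546 without each list. The cause of these moves was not tested. Changes under 2-fold, such as those of all members, were not simulated.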

Other observations

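RPS24, a small-subunit gene known for alternative use of 2 short exons near its 3′ end, was read over 8 exons. Its 25-base exon held 1.55 ± 0.151% of the gene's exon counts in knockdown and 1.30 ± 0.0738% in control (SD, n = 3 each), and no RPS24 exon was called in edgeR's exon test. The spans of the 79 ribosomal protein genes also held 60 iCLIP sites on the strand opposite to the gene, beside 1817 on the gene's strand. The authors' own p-values for sites in member exons were at most 0.05 for 4.69%, 4.84% and 2.17% of sites in lists 1, 2 and 3, against 6.24%, 4.36% and 4.96% of the other exonic sites.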
